A study of Mus musculus with 32 samples.

Results

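The genes described here are the 10 best known parts of the growth hormone (GH) and insulin-like growth factor (IGF) axis: Igf1, Igfals, Igfbp1, Igfbp2, Igfbp3, Igfbp4, Igfbp5, Igf1r, Ghr and Socs2. They are listed by name, with no threshold on a measured value, but with earlier results of these data known, out of 47643 genes in the count table, of which 25444 had a count in at least 1 library. RNA was taken from epididymal white adipose tissue (eWAT) and liver of male C57BL/6 mice (C57BL/6J in the study's methods) that were 10 weeks old at the start and were studied for 7 days. The study's methods give a fast of 4 h before tissue was taken. Mice drank corticosterone (Cort), the main glucocorticoid of rodents, or its ethanol vehicle (Veh), and ate a purified normal-protein diet (NPD, 20% of kcal from protein) or a high-protein diet (HPD, 60%) with less carbohydrate and matched fat. Each tissue had 4 groups of 4 libraries: vehicle on either diet (Veh NPD, Veh HPD) and corticosterone on either diet (Cort NPD, Cort HPD). All mice carried the same genotype, with no allele that differed between groups. The comparisons ask how cort acts on this axis in a tissue, whether the diet changes that response, and whether liver and eWAT respond alike.

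IGF1 is a small hormone that resembles insulin and is released mainly by the liver when GH binds its receptor, the product of Ghr. GH signals through JAK2 and STAT5, which induce Igf1 itself, Igfals and the feedback inhibitor Socs2. In blood, IGF1 travels with an IGF binding protein, above all IGFBP3, and with the acid-labile subunit made from Igfals, and the binding proteins set how much hormone reaches its receptor, IGF1R. Fat cells also make IGF1 and respond strongly to GH. Glucocorticoids are known to disturb this axis and to slow growth.

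Some binding protein genes sit tail to tail in the genome. In the GENCODE annotation of GRCm38, Igfbp2 (forward strand) and Igfbp5 (reverse strand) are neighbours on chromosome 1, with 5457 bases between their ends. Igfbp1 (forward) and Igfbp3 (reverse) lie in the same way on chromosome 11, with 3539 bases between them. Promoter windows, from 250 bases before to 50 after a transcription start, were taken from RefSeq (GRCm38.p6). They were found for 9 of the 10 genes, with Socs2 the one without. Those of both neighbouring pairs and of Igf1 are shown, because Igfbp2, Igfbp3, Igfbp5 and Igf1 were each called in a comparison, and Igfbp1 is the neighbour of Igfbp3. Of the 2 windows of Igfbp2, the first is shown. Each window shown is written 5′ to 3′ on the strand of its gene, and capitals mark the letters of a searched motif.
Igfbp2, chr1:72824230-72824529, forward: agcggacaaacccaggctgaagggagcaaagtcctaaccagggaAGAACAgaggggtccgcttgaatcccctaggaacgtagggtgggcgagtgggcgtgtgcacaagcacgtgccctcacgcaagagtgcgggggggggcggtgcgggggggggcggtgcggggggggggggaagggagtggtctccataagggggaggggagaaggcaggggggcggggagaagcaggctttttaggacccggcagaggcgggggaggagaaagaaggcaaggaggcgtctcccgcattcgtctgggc
Igfbp5, chr1:72874816-72875115, reverse: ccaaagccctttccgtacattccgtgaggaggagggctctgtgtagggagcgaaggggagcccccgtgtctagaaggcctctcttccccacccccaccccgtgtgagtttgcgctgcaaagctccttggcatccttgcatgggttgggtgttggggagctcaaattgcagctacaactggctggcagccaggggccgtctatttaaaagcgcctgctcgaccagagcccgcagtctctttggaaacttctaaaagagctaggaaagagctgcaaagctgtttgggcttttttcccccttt
Igfbp1, chr11:7197537-7197836, forward: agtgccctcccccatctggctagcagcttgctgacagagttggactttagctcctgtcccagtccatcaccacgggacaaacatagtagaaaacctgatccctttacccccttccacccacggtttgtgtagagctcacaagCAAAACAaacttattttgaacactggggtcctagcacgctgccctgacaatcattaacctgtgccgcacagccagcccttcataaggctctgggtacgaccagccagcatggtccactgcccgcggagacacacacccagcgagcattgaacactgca
Igfbp3, chr11:7213874-7214173, reverse: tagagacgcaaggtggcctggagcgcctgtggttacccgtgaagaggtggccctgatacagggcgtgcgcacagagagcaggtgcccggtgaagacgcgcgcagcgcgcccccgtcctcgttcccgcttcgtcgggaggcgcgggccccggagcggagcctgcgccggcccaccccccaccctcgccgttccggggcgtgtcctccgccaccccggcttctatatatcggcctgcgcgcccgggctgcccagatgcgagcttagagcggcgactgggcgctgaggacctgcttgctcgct
Igf1, chr10:87860861-87861160, forward: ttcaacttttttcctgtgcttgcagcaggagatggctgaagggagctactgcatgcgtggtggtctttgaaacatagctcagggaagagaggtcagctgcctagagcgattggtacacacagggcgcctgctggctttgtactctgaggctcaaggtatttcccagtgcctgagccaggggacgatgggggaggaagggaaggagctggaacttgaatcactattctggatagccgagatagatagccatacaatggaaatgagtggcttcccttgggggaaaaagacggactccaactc

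The letters searched, on both strands, were the glucocorticoid receptor half-site AGAACA, the FOXO site TGTTTAC, the core CAAAACA of the insulin response element, and the STAT5 site TTCNNNGAA. They occur in 19.0%, 3.65%, 6.28% and 8.30% of all 32851 RefSeq promoter windows of this length. In its first window Igfbp2 held the half-site 206 bases before the transcription start, and its second window held none of the 4 motifs. Igfbp1 held the insulin response core 108 bases before its start. Of the genes not printed, Igfals, which has 3 windows, held a half-site and a STAT5 match in the first and a FOXO and a STAT5 match in the second. The windows of Igf1, Igfbp3, Igfbp4, Igfbp5, Igf1r and Ghr held none of the 4 motifs. These matches describe letters, not binding.

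The libraries were made with QuantSeq, which reads each transcript once from its 3′ end, so that the CPM values given below (counts scaled to the library total) do not grow with transcript length. Total counts were 9794683 to 18057936 in eWAT and 8933307 to 17447524 in liver. In liver, the fourth Veh HPD library was left out, as the study did after a principal component analysis, so that Veh HPD has 3 libraries there. Its hepatocyte markers summed to 48406 CPM, against 88258 to 97223 CPM in the other libraries of its group. In eWAT, the fourth Cort HPD library held transcripts of the epididymis: all 8 markers had counts, with a sum of 21192 CPM against 0 to 13.0 CPM in the other eWAT libraries. For the axis genes tested there, the cort response on the HPD in eWAT is therefore also given without it. Values of other genes include it. In liver, Cort HPD replicate 1 stood apart from its group, with a mean chi-square per gene of 118 to 153 against the other three libraries, which gave 15.3 to 25.6 among themselves, and with the highest hepatocyte marker sum (283979 CPM). Without it, the cort response on the HPD was called for 4 of the 10 genes, as with it. Genes called in all were 1113 without it and 1226 with it. The 7 hepatocyte markers summed to at most 99.9 CPM in eWAT, and the adipocyte markers without Car3, a gene that liver also uses, to at most 34.3 CPM in liver. The labels do not say which liver and eWAT libraries came from 1 mouse, and name no batch.

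In mice given vehicle the axis looked different in liver and fat. In liver of the Veh NPD group, Igfbp4 (1182 ± 179 CPM, SD, n = 4) and Igf1 (1121 ± 122 CPM) led, with overlapping libraries. Ghr followed at 374 ± 46.3 CPM, then Igfbp2 at 224 ± 42.0 and Igfbp1 at 210 ± 68.2 CPM, which overlapped each other. Igfals (50.7 ± 11.4 CPM) and Socs2 (47.3 ± 22.1 CPM) formed the next step. Igfbp3, whose hepatic source is not the hepatocyte but other cells of the liver, stood at 6.07 ± 1.25 CPM. Igfbp5 (2.50 ± 1.09 CPM) and Igf1r (2.31 ± 0.980 CPM) were lowest, and their libraries overlapped, so that the receptor of IGF1 was among the lowest of the 10 genes in the organ that makes most of the hormone.

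In eWAT of the same group, Ghr led with 1311 ± 167 CPM, ahead of Igfbp4 (1013 ± 59.5 CPM) and Igf1 (416 ± 73.0 CPM). Igfbp5 reached 155 ± 48.3 CPM and Igf1r 38.2 ± 6.30 CPM. Igfals (24.4 ± 6.68 CPM) and Socs2 (24.1 ± 7.92 CPM) could not be ranked, since their libraries overlapped. Igfbp3 stood at 10.3 ± 3.41 CPM and Igfbp2 at 2.92 ± 1.68 CPM. Igfbp1 had no count in any of the 4 libraries, which allows at most 3 counts in each. Levels were scaled within a tissue, so the 2 orders can be read but not subtracted.

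In liver, cort lowered Igfbp2, Socs2 and Ghr on both diets, while Igf1 did not pass the test on either. On the NPD, edgeR's quasi-likelihood test with Benjamini-Hochberg adjustment called 5 of the 10 genes at an adjusted p under 0.05, where 12.6% of all 12391 genes tested were called. Igfbp2, Socs2 and Ghr fell (3 genes, against 5.79% of all genes called lower), and Igfbp4 and Igfbp5 rose (2 genes, against 6.84% higher). On the HPD, 4 of the 10 genes were called, all lower: Igfbp2, Socs2, Ghr and Igfals, where 9.89% of all genes were called in either direction and 5.14% lower. The median log2 fold change of the 10 genes was -0.22 on the NPD and -0.74 on the HPD, against -0.01 and -0.00 over all genes tested. All 10 genes passed the filter on low counts in liver.

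**Figure D1:**
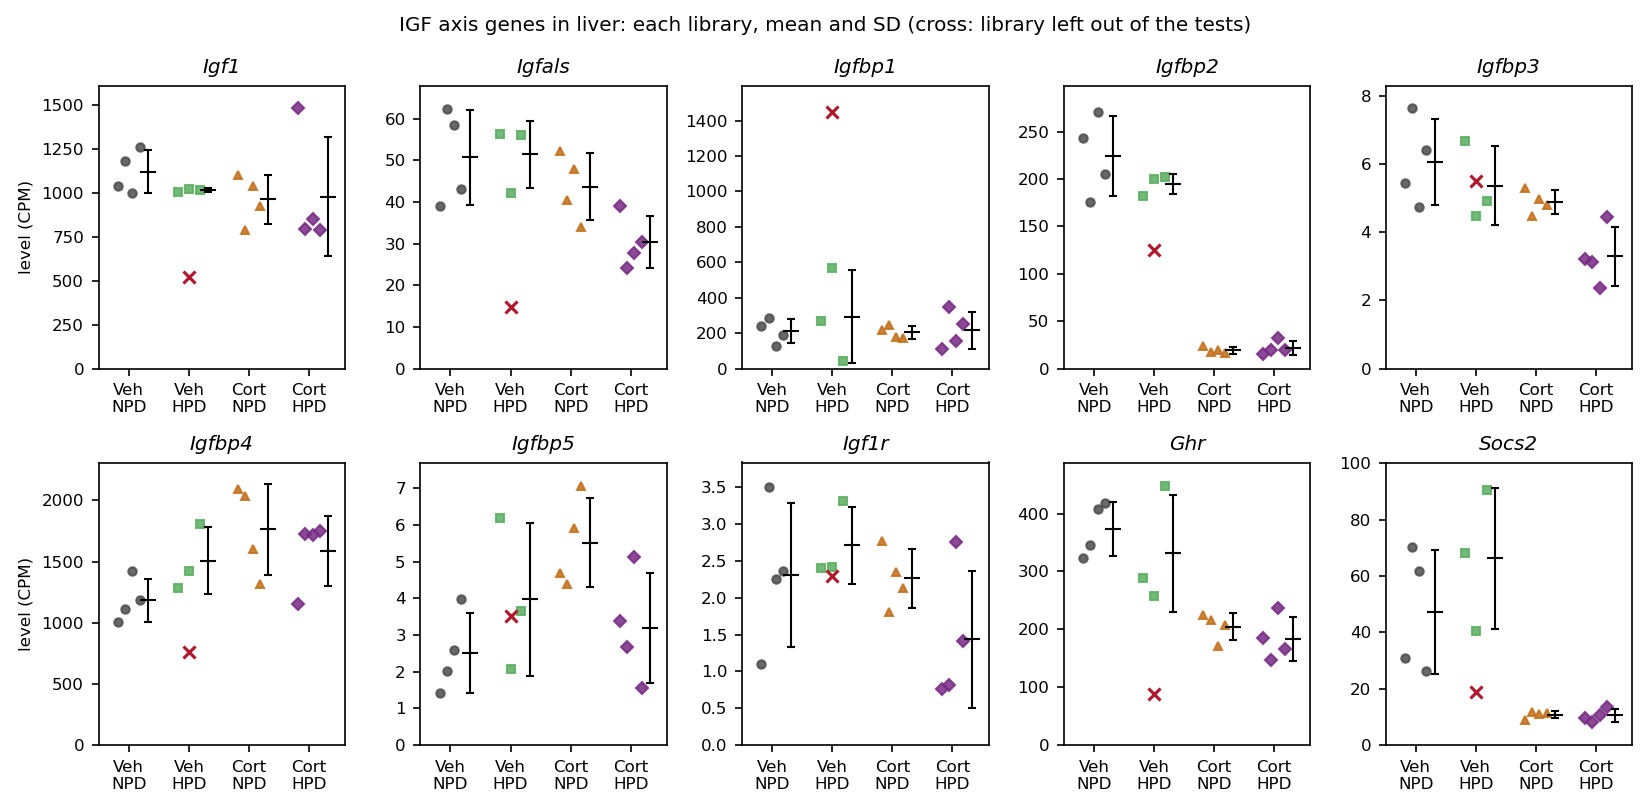
Level in liver (CPM, y axis from 0, each panel with its own scale) of the 10 genes in the 4 groups, with 1 point per library and the mean and SD beside the points. The libraries of Igfbp2 and Socs2 fall from the Veh groups to the Cort groups with no overlap, while those of Igf1 overlap in all groups.

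The largest change in liver was that of Igfbp2, a binding protein made by hepatocytes that holds IGFs away from their receptor. It was measured at 244, 176, 271 and 206 CPM in Veh NPD and at 23.7, 17.4, 19.2 and 15.9 CPM in Cort NPD. With the HPD the libraries went from 182, 200 and 202 CPM under Veh to 15.6, 20.1, 32.4 and 19.7 CPM under Cort. Every cort library lay below every veh library on both diets. This gave a log2 fold change of -3.56 ± 0.21 (SE) on the NPD, an 11.75-fold lower mean level (edgeR adjusted p = 4.1e-10), and -3.15 ± 0.21 on the HPD, an 8.88-fold lower one (edgeR adjusted p = 2.6e-09). With all 16 liver libraries the values were -3.55 and -3.00, and both calls remained.

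Socs2, which blocks the GH receptor and is itself induced by GH, fell as well. Its veh libraries spread widely, with 30.7, 70.3, 61.9 and 26.2 CPM in Veh NPD and 68.0, 40.4 and 90.4 CPM in Veh HPD. The cort libraries were tight, with 8.85, 11.6, 11.1 and 11.5 CPM in Cort NPD and 9.49, 8.32, 10.8 and 13.7 CPM in Cort HPD. No cort library reached the lowest veh library. The change on the log2 scale was -2.13 ± 0.31 on the NPD (edgeR adjusted p = 2.8e-04) and -2.65 ± 0.33 on the HPD (edgeR adjusted p = 1.1e-04). With all 16 libraries it was -2.13 and -2.35, and both calls remained.

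Ghr, the receptor that starts the cascade, fell less. It was at 324, 345, 407 and 419 CPM in Veh NPD and at 224, 216, 171 and 208 CPM in Cort NPD. The HPD libraries went from 289, 257 and 447 CPM to 185, 148, 236 and 165 CPM. The groups did not overlap on either diet, though on the HPD the highest cort library came close to the lowest veh library. Its log2 fold change was -0.87 ± 0.18 (edgeR adjusted p = 0.0024) on the NPD and -0.85 ± 0.19 (edgeR adjusted p = 0.0063) on the HPD. The left-out Veh HPD library had 88.0 CPM, and with all 16 libraries neither call held (-0.87 with an edgeR adjusted p = 0.101, and -0.55 with an edgeR adjusted p = 0.289). Without Veh HPD replicate 3, the highest of its group, the HPD value was -0.57 and was no longer called (edgeR adjusted p = 0.0762).

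Igf1 itself, the hormone, did not pass the test in liver on either diet. It was at 1039, 1186, 1001 and 1260 CPM in Veh NPD and at 1104, 787, 1042 and 927 CPM in Cort NPD. On the HPD it was at 1004, 1024 and 1020 CPM under Veh and at 1486, 793, 852 and 787 CPM under Cort. The cort and veh libraries overlapped on both diets, and 1 of the 4 Cort HPD libraries was above all others. It was replicate 1, the library that stood apart. The log2 fold change was -0.22 ± 0.19 on the NPD (edgeR adjusted p = 0.496) and -0.05 ± 0.20 on the HPD (edgeR adjusted p = 0.902). Without Cort HPD replicate 1 the HPD value was -0.33 ± 0.15 (edgeR adjusted p = 0.189), and with all 16 libraries it turned to 0.15, not called either.

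Igfals, the acid-labile subunit that keeps IGF1 in the circulation, fell on the HPD. Its liver libraries were at 56.2, 42.1 and 55.9 CPM in Veh HPD and at 38.9, 24.2, 27.8 and 30.4 CPM in Cort HPD, without overlap. This gave a log2 fold change of -0.76 ± 0.20 (edgeR adjusted p = 0.0154). The call did not hold without Veh HPD replicate 1 or 3 or Cort HPD replicate 2 (-0.70, -0.70 and -0.67, edgeR adjusted p = 0.0703, 0.0632 and 0.0539), nor with all 16 libraries (-0.46, edgeR adjusted p = 0.375), where the added library had 14.7 CPM. On the NPD the libraries of both treatments overlapped, with 39.0, 62.2, 58.5 and 43.2 CPM under Veh and 52.2, 40.5, 47.8 and 34.0 CPM under Cort (-0.22 ± 0.18, edgeR adjusted p = 0.488). Whether the response differed between diets is answered by the interaction, which was -0.55 ± 0.27 and not called (edgeR adjusted p = 0.428).

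Igfbp4, a binding protein that inhibits IGF action until it is cut by the protease PAPP-A, was higher with cort on the NPD. It was at 1007, 1108, 1426 and 1188 CPM in Veh NPD and at 2093, 2038, 1601 and 1319 CPM in Cort NPD, so that the lowest cort library lay below the highest veh library. The change on the log2 scale was 0.58 ± 0.18 (edgeR adjusted p = 0.0419). It was no longer called when any 1 of 6 of the 8 libraries was left out (Veh NPD replicates 1, 2 and 4 and Cort NPD replicates 1, 2 and 3), with values of 0.48 to 0.61 and edgeR adjusted p = 0.0650 to 0.139, nor with all 16 libraries (0.58, edgeR adjusted p = 0.145). On the HPD it was at 1283, 1422 and 1811 CPM under Veh and at 1155, 1722, 1720 and 1749 CPM under Cort (0.08 ± 0.20, edgeR adjusted p = 0.854), and the value was 0.20 without Cort HPD replicate 1, the lowest of its group (edgeR adjusted p = 0.555).

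Igfbp5, the most conserved of the binding proteins, was called at a low level. It rose from 1.42, 2.02, 2.60 and 3.97 CPM in Veh NPD to 4.69, 4.40, 5.90 and 7.05 CPM in Cort NPD, without overlap, on 18 to 116 counts per library. Its log2 fold change was 1.14 ± 0.37 (edgeR adjusted p = 0.0455). The call was lost on leaving out any 1 of 7 of the 8 libraries, Veh NPD replicate 4 being the exception, with values of 0.93 to 1.23 and edgeR adjusted p = 0.0533 to 0.139, and also with all 16 libraries (1.14, edgeR adjusted p = 0.0641). On the HPD the value was -0.34 ± 0.39 (edgeR adjusted p = 0.630), from 6.19, 2.07 and 3.65 CPM to 3.39, 2.67, 5.13 and 1.56 CPM.

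Igfbp3, the main carrier of IGF1 in blood, and Igf1r, its receptor, were low in liver. Igfbp3 was at 6.70, 4.49 and 4.93 CPM in Veh HPD and at 3.22, 3.14, 2.37 and 4.45 CPM in Cort HPD, with no overlap but a gap of under 0.05 CPM. Its log2 fold change of -0.71 ± 0.25 did not pass (edgeR adjusted p = 0.0732) and passed only without Cort HPD replicate 4 (-0.89, edgeR adjusted p = 0.0383). On the NPD, Igfbp3 gave -0.30 ± 0.23 (edgeR adjusted p = 0.429). Igf1r, between 0.763 and 3.50 CPM in the 15 libraries, gave -0.01 ± 0.38 on the NPD and -0.92 ± 0.41 on the HPD (edgeR adjusted p = 0.989 and 0.168). The latter passed only without Cort HPD replicate 3 (-1.44, edgeR adjusted p = 0.0310).

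Igfbp1, the binding protein that insulin represses and fasting and glucocorticoids induce in hepatocytes, spread widely between the libraries of Veh HPD. It was at 241, 285, 127 and 188 CPM in Veh NPD and at 220, 246, 178 and 173 CPM in Cort NPD. On the HPD it ranged from 42.1 over 266 to 566 CPM in the 3 Veh libraries and was at 113, 345, 153 and 249 CPM under Cort. The veh and cort libraries overlapped on both diets. The log2 fold change was -0.04 ± 0.60 on the NPD and -0.44 ± 0.64 on the HPD (edgeR adjusted p = 0.973 and 0.728), with the largest SEs of the 10 genes in liver. The left-out Veh HPD library held 1448 CPM, more than any other liver library.

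Other RNA moved with cort in liver. The 7 hepatocyte markers summed to 88258 to 131878 CPM in the Veh libraries and to 144530 to 283979 CPM in the Cort libraries, and the 5 macrophage markers to 115 to 156 CPM and 49.9 to 84.9 CPM. Tat, a gene of the hepatocyte list, went the other way on the NPD and fell under cort, as given below. In Cort HPD the 5 red blood cell markers summed to 5271 to 7622 CPM, against 1358 to 3544 CPM in the other fitted liver libraries. The 4 endothelial markers summed to 28.0 to 41.7 CPM in Cort HPD, against 54.8 to 70.0 CPM in Veh HPD, 43.9 to 84.6 CPM in Cort NPD and 39.6 to 59.5 CPM in Veh NPD. The 4 markers of hepatic stellate cells summed to 46.8 to 76.5 CPM in the Veh libraries and 62.0 to 88.9 CPM in the Cort libraries. The 5 markers of exocrine pancreas summed to 33.01 to 146 CPM under Veh and 17.2 to 24.3 CPM under Cort. The 4 markers of skeletal muscle summed to 0.122 to 407 CPM in Cort NPD, the high end being a single library. In Veh NPD, Veh HPD and Cort HPD these muscle markers summed to at most 0.553, 34.1 and 4.49 CPM. The part of these shifts in the results above was not tested. In bulk tissue, fewer cells of a type and less RNA per cell cannot be told apart.

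In eWAT the pattern was another one: Igf1 fell under cort and the binding proteins Igfbp3 and Igfbp4 rose, on both diets. On the NPD, 4 of the 9 genes tested were called, where 7.98% of all 15187 genes were: Igf1 and Socs2 lower (3.93% of all genes) and Igfbp3 and Igfbp4 higher (4.05%). On the HPD, 3 of 9 were called, where 6.09% of all genes were: Igf1 lower (2.63%) and Igfbp3 and Igfbp4 higher (3.46%). The median log2 fold change of the 9 genes was -0.14 on the NPD and 0.34 on the HPD, against -0.02 and -0.00 over all genes. With 9 genes each median is the value of a single gene that was not called, Igfbp5 on the NPD and Igfbp2 on the HPD. Igfbp1 did not pass the filter in eWAT. The HPD count was also 3 without the library that held epididymal transcripts, where 744 genes in all were called, against 925 with it.

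**Figure D2:**
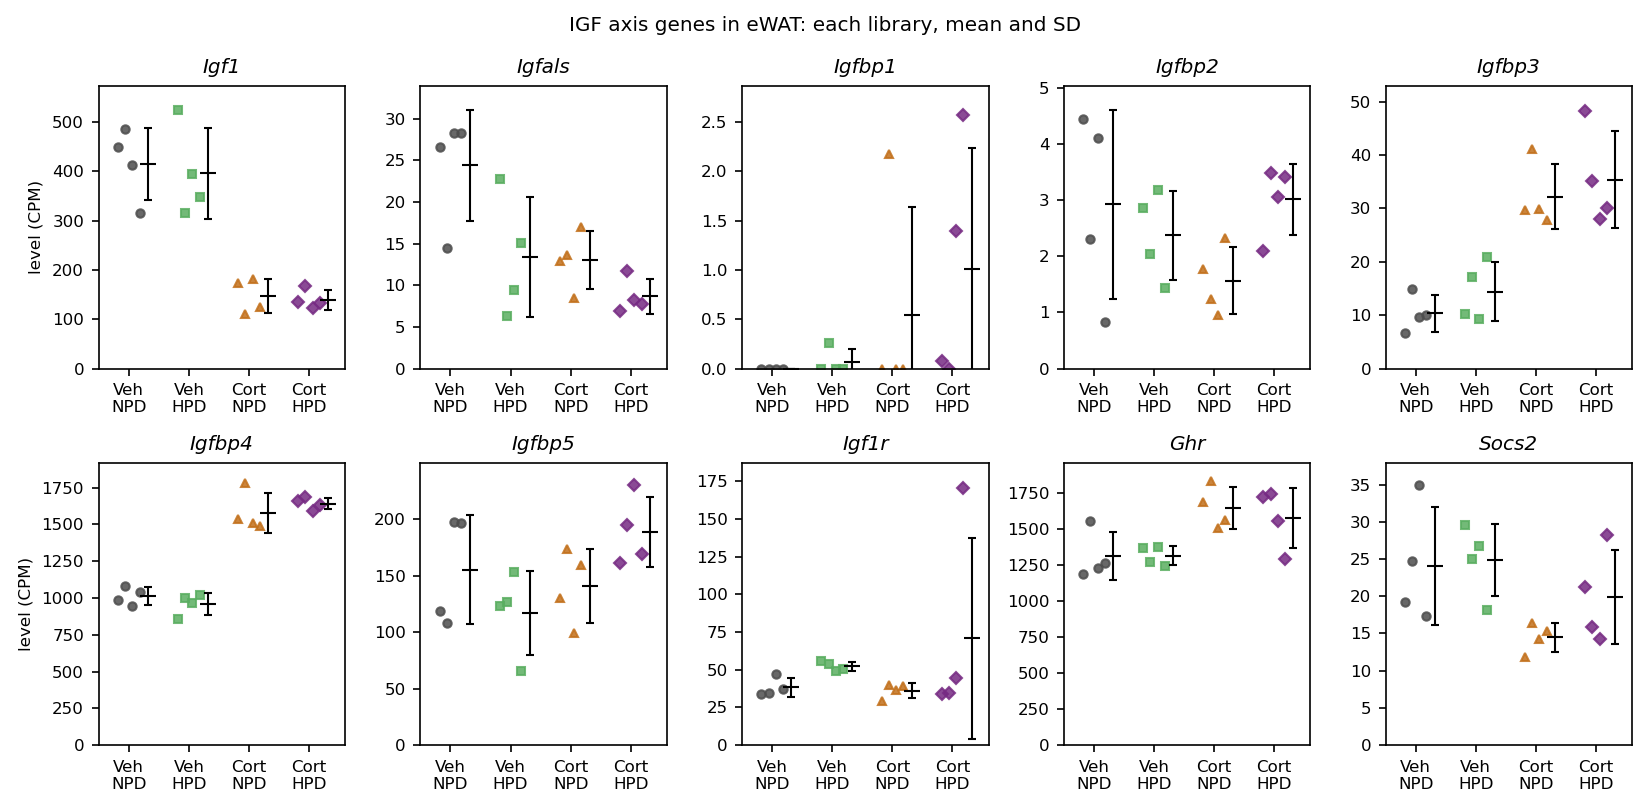
Level in eWAT (CPM, y axis from 0, each panel with its own scale) of the 10 genes in the 4 groups, with 1 point per library and the mean and SD beside the points; for Igfbp1 the bars are cut off at 0. Igf1 is lower, and Igfbp3 and Igfbp4 are higher, in all Cort libraries than in all Veh libraries, and the single high point of Igf1r in Cort HPD (170 CPM) is the library with epididymal transcripts.

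Igf1, which fat makes for local use as well as for the blood, was at 449, 485, 413 and 316 CPM in Veh NPD and at 173, 110, 181 and 125 CPM in Cort NPD. Under the HPD the values went from 525, 315, 395 and 349 CPM to 136, 168, 122 and 132 CPM. Every cort library was below every veh library, whatever the diet. The mean level was 2.83-fold lower on the NPD (log2 fold change -1.50 ± 0.18, edgeR adjusted p = 4.6e-06) and 2.84-fold lower on the HPD (-1.51 ± 0.18, edgeR adjusted p = 5.2e-06). Without Cort HPD replicate 4 the latter was -1.48 ± 0.20 (edgeR adjusted p = 4.8e-05). The interaction with diet was -0.01 ± 0.24 and was not called (edgeR adjusted p = 0.999).

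Igfbp3 rose in eWAT from 6.73, 14.96, 9.68 and 9.99 CPM in Veh NPD to 29.6, 41.2, 30.0 and 27.9 CPM in Cort NPD. On the HPD it went from 10.2, 17.2, 9.29 and 20.9 CPM to 48.3, 35.1, 28.1 and 30.1 CPM. The groups were apart on both diets. This gave a log2 fold change of 1.64 ± 0.26 on the NPD, a 3.12-fold higher level (edgeR adjusted p = 2.1e-04), and 1.30 ± 0.26 on the HPD, a 2.46-fold higher one (edgeR adjusted p = 0.0024). Without Cort HPD replicate 4 the latter was 1.37 ± 0.27 (edgeR adjusted p = 0.0027).

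Igfbp4 was the steadiest of the genes in eWAT. It was at 987, 1080, 944 and 1039 CPM in Veh NPD and at 1540, 1784, 1508 and 1490 CPM in Cort NPD. With the HPD the libraries went from 855, 1001, 968 and 1019 CPM to 1658, 1686, 1594 and 1629 CPM. The lowest of the 8 cort libraries was well above the highest of the 8 veh libraries. The change on the log2 scale was 0.64 ± 0.11 on the NPD (edgeR adjusted p = 2.6e-04) and 0.77 ± 0.11 on the HPD (edgeR adjusted p = 3.6e-05), and 0.78 ± 0.12 without Cort HPD replicate 4 (edgeR adjusted p = 1.2e-04).

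Of the GH receptor gene and its feedback inhibitor, Socs2 was called in fat, on the NPD. It went from 19.3, 24.7, 35.0 and 17.4 CPM in Veh NPD to 11.9, 16.4, 14.2 and 15.3 CPM in Cort NPD, just without overlap (-0.74 ± 0.23, edgeR adjusted p = 0.0461). The call was lost on leaving out any 1 of 6 of the 8 libraries, Veh NPD replicates 1 and 4 being the exceptions, with values of -0.81 to -0.50 and edgeR adjusted p = 0.0585 to 0.253. On the HPD Socs2 was at 29.6, 25.1, 26.7 and 18.2 CPM under Veh and at 21.2, 15.9, 14.2 and 28.2 CPM under Cort (-0.32 ± 0.23, edgeR adjusted p = 0.495), and its highest cort value came from the library with epididymal transcripts, without which the value was -0.54 ± 0.23 (edgeR adjusted p = 0.213).

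Ghr, the gene with the highest mean of the 10 in Veh NPD of fat, was at 1186, 1556, 1234 and 1269 CPM in Veh NPD and at 1688, 1836, 1509 and 1563 CPM in Cort NPD. The groups overlapped through 1 veh library, and the log2 fold change of 0.33 ± 0.12 did not pass (edgeR adjusted p = 0.0986). Without that library, Veh NPD replicate 2, it passed (0.42, edgeR adjusted p = 0.0378). On the HPD it was 0.26 ± 0.12 (edgeR adjusted p = 0.232), and 0.35 ± 0.13 without Cort HPD replicate 4 (edgeR adjusted p = 0.126).

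The other genes of the axis did not pass in eWAT. Igfals was at 26.6, 14.4, 28.2 and 28.3 CPM in Veh NPD, at 22.8, 6.27, 9.42 and 15.05 CPM in Veh HPD, at 13.0, 13.6, 8.52 and 17.0 CPM in Cort NPD and at 6.94, 11.7, 8.24 and 7.79 CPM in Cort HPD. Its cort response was -0.91 ± 0.31 on the NPD (edgeR adjusted p = 0.0827) and -0.63 ± 0.32 on the HPD (edgeR adjusted p = 0.293). The former passed without Veh NPD replicate 2, the lowest of its group (-1.09, edgeR adjusted p = 0.0356). Without Cort HPD replicate 4 the HPD value was -0.58 ± 0.36 (edgeR adjusted p = 0.437). Hepatocyte markers in these eWAT libraries summed to 41.7 to 83.9 CPM in the Veh libraries and 62.4 to 99.9 CPM in the Cort libraries. Their part in the Igfals values was not tested.

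Igfbp5 was at 123, 126, 154 and 65.4 CPM in Veh HPD and at 161, 195, 230 and 169 CPM in Cort HPD. These groups did not overlap, but the log2 fold change of 0.69 ± 0.26 did not pass (edgeR adjusted p = 0.159), and on the NPD it was -0.14 ± 0.26 (edgeR adjusted p = 0.841). Without Cort HPD replicate 4 the HPD value was 0.74 ± 0.29 (edgeR adjusted p = 0.210). Igf1r was at 34.0, 34.2, 47.4 and 37.2 CPM in Veh NPD, 55.5, 53.8, 49.0 and 50.7 CPM in Veh HPD, 29.1, 39.6, 36.5 and 39.4 CPM in Cort NPD and 33.7, 34.5, 44.6 and 170 CPM in Cort HPD, the last being the library with epididymal transcripts. With it, the cort response of Igf1r on the HPD was 0.44 ± 0.43 (edgeR adjusted p = 0.656), and without it -0.47 ± 0.16 (edgeR adjusted p = 0.0922), the opposite direction.

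Igfbp2, the gene that fell most in liver, was low in eWAT, with 0.827 to 4.45 CPM (12 to 72 counts) in the 16 libraries. Its cort response there was -0.90 ± 0.55 on the NPD and 0.34 ± 0.54 on the HPD, and neither passed (edgeR adjusted p = 0.393 and 0.808). Without Cort HPD replicate 4 the HPD value was 0.27 ± 0.60 (edgeR adjusted p = 0.883). Igfbp1 had no count in 11 of the 16 eWAT libraries and at most 40 counts (2.57 CPM) in the other 5. No fold is given for it.

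Markers of other cells moved with cort in eWAT too. The 6 markers of adipose progenitors and fibroblasts, cells that also express Igf1, summed to 3521 to 4163 CPM in the Veh libraries and to 2194 to 2750 CPM in the Cort libraries. The 6 adipocyte markers summed to 33295 to 46016 CPM in the Veh libraries and 25605 to 34484 CPM in the Cort libraries, and without Car3 to 11298 to 17832 CPM and 11449 to 15326 CPM, and the macrophage markers to 203 to 273 CPM and 165 to 268 CPM. The red blood cell markers stood at 12684 to 25856 CPM in Cort HPD, against 3619 to 9273 CPM in the other groups. Their part in the results was not tested.

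None of the 10 genes was called between the diets by edgeR. For HPD against NPD under Veh, edgeR called 0 of 10 genes in liver (0.169% of all genes were called) and 0 of 9 in eWAT (0.0593%), with 0 and 1 at an unadjusted p under 0.05 (9.4% and 8.03% of all genes). Under Cort, edgeR called 0 of 10 in liver (5.88%) and 0 of 9 in eWAT (0.487%), with 3 and 1 at an unadjusted p under 0.05 (21.3% and 9.81%). DESeq2 and limma voom also called 0 in each of these 4 comparisons. In liver under Cort, those 3 genes were Igfals (-0.52 ± 0.18), Igfbp3 (-0.57 ± 0.23) and Igfbp5 (-0.80 ± 0.36), with edgeR adjusted p = 0.0945, 0.157 and 0.201, all lower on the HPD. Igfals passed when Cort HPD replicate 1 was left out (-0.66, edgeR adjusted p = 0.0358).

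In eWAT the gene at an unadjusted p under 0.05 was Igfals under Veh (-0.87 ± 0.31, edgeR adjusted p = 0.407) and Igf1r under Cort (0.97 ± 0.44, edgeR adjusted p = 0.494). The latter fell to 0.06 ± 0.16 without the library with epididymal transcripts (edgeR adjusted p = 0.979). Under Veh, Igf1r in eWAT was higher on the HPD in every library than in any NPD library, at 0.45 ± 0.44 on the log2 scale (edgeR adjusted p = 0.915). In a fit of the Veh groups alone, without the library with epididymal transcripts, it was 0.46 ± 0.15 and was not called either (edgeR adjusted p = 0.520).

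Whether the response to cort differed between diets was tested as the diet by cort interaction, which was called for 0 of 10 genes in liver (0.113% of all genes) and 0 of 9 in eWAT (0.0132%) by edgeR, and for 0 genes by DESeq2 and limma voom as well. At an unadjusted p under 0.05 there was 1 gene in each tissue (12.1% of all genes in liver and 5.16% in eWAT), Igfbp5 in both. The value for HPD minus NPD was -1.48 ± 0.53 in liver (edgeR adjusted p = 0.262) and of the opposite sign in eWAT (0.83 ± 0.37, edgeR adjusted p = 0.947). Without Cort HPD replicate 4 of eWAT the latter was 0.88 ± 0.40 (edgeR adjusted p = 0.9998). For Igfbp2 in liver, the gene with the largest response, the difference between diets was 0.40 ± 0.28 (edgeR adjusted p = 0.584).

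**Figure D3:**
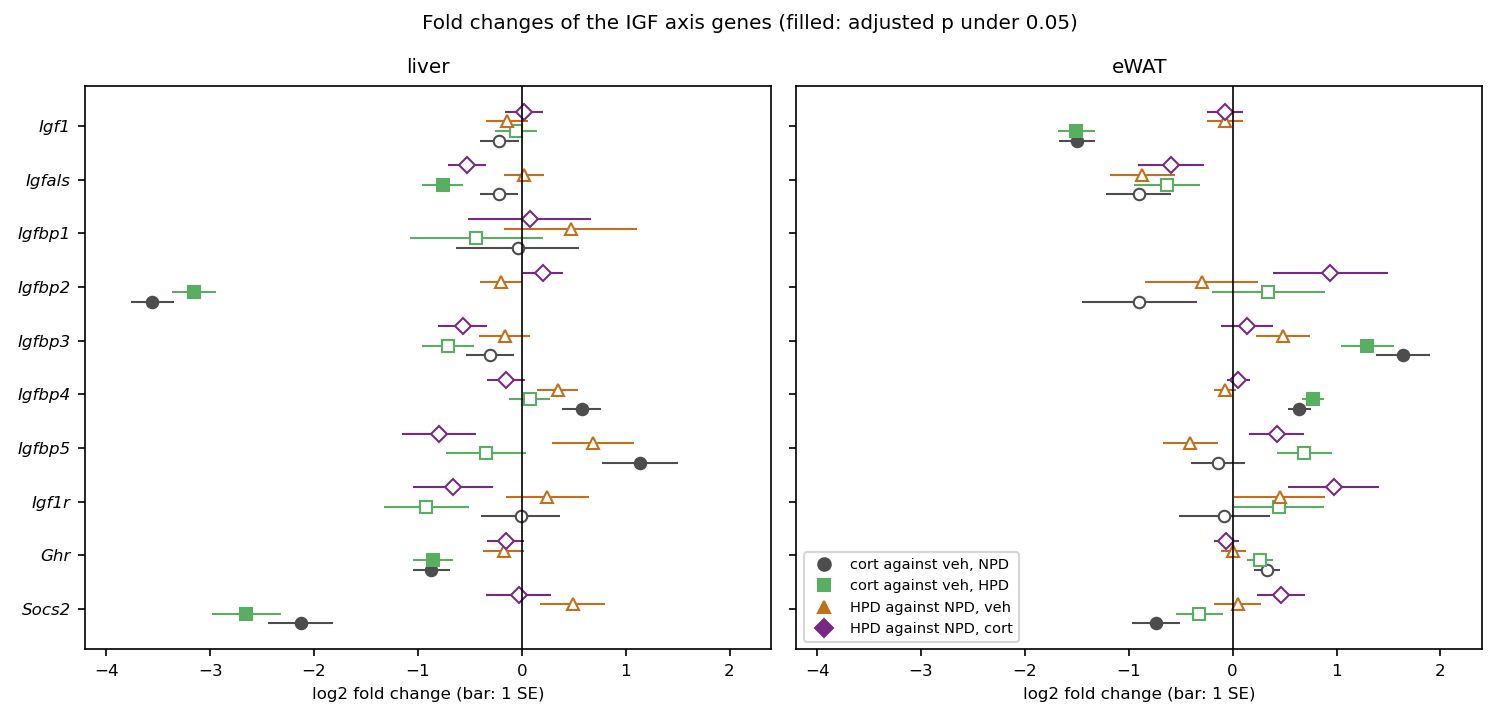
Log2 fold change (x axis) of the 10 genes for cort against veh on each diet and HPD against NPD under each treatment, in liver (left) and eWAT (right), with bars of 1 SE and filled symbols for an adjusted p under 0.05; Igfbp1 was not tested in eWAT. Filled symbols occur for cort against veh and for no comparison of diets.

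Whether cort acted alike in the tissues was tested in a fit of all 31 libraries together, as the cort response averaged over diets in liver minus that in eWAT. For 5 of the 10 genes the difference was called, where 7.76% of all 16482 genes tested were, 1 with a higher value in liver (3.88% of all genes) and 4 with a lower one (3.88%). For Igf1 it was 1.37 ± 0.20 (edgeR adjusted p = 1.6e-05), the fall being in eWAT. For Igfbp3 it was -1.97 ± 0.26 (edgeR adjusted p = 2.5e-06), with a rise in eWAT and negative values in liver that did not pass on their own. For Ghr it was -1.16 ± 0.17 (edgeR adjusted p = 1.1e-05), and here the signs were opposite, lower in liver and with positive values in eWAT that did not pass on their own.

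Igfbp2 (-3.07 ± 0.32, edgeR adjusted p = 2.1e-07) and Socs2 (-1.86 ± 0.29, edgeR adjusted p = 6.0e-05) had a more negative response in liver than in eWAT. All 5 calls held without the eWAT library with epididymal transcripts, and all 5 held with all 16 liver libraries. Igfbp4, the one gene called in both tissues on the NPD apart from Socs2, gave -0.38 ± 0.16 and was not called (edgeR adjusted p = 0.156). Igfals (0.28 ± 0.28), Igfbp5 (0.12 ± 0.34) and Igf1r (-0.64 ± 0.44) were not called either (edgeR adjusted p = 0.673, 0.963 and 0.460). Igfbp1, almost without counts in eWAT, is left out of this comparison of responses although it was among the 10 genes fitted (edgeR adjusted p = 0.0891).

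**Figure D4:**
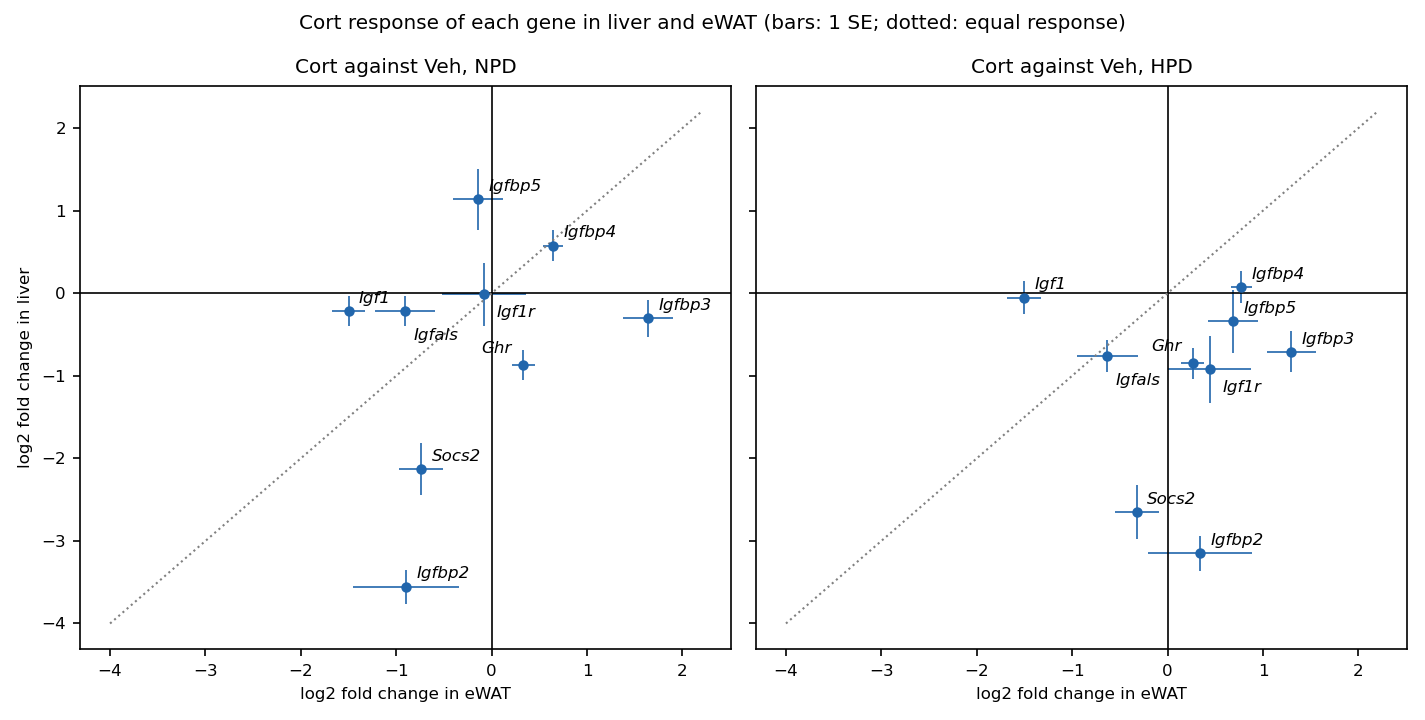
Log2 fold change for cort against veh in eWAT (x axis) and liver (y axis) of 9 genes, on the NPD (left) and the HPD (right), with bars of 1 SE and a dotted line where the response would be equal. Igf1 lies far to the left near the zero line of liver, Igfbp2 and Socs2 lie far below the dotted line, and Igfbp3 lies to the right of it.

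Other genes of the pathway, 30 in all, were followed as 4 lists: further ligands and receptors, further binding proteins and the enzymes and inhibitors that control them, adaptors of the receptor, and GH signalling. In liver 22 of them were tested, with a median log2 fold change for cort of -0.09 on the NPD and -0.15 on the HPD. Of all genes, 6.84% were called higher by cort on the NPD, 5.79% lower and 12.6% in either direction. Near that last share, cort raised 3 of the 22 and lowered 0. These were Igf2r, the receptor that clears IGF2 (from 13.7 ± 1.55 to 26.7 ± 4.09 CPM, log2 fold change 0.96 ± 0.15, edgeR adjusted p = 1.4e-04), the insulin receptor Insr (0.74 ± 0.19, edgeR adjusted p = 0.0103) and Pik3r1, a regulatory subunit of the kinase that receptors of insulin and IGF1 engage (0.76 ± 0.20, edgeR adjusted p = 0.0137). On the HPD, where 9.89% of all genes were called, none of these 3 was, and Igfbp7, a related protein of low affinity for IGFs, was the single gene of the 22 that fell (-0.61 ± 0.19, edgeR adjusted p = 0.0397).

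The interaction was called for Igf2r in liver (-1.10 ± 0.22, edgeR adjusted p = 0.0499), which stood at 21.3 ± 1.88 CPM in Veh HPD (n = 3) and 19.4 ± 0.851 CPM in Cort HPD. Igf2r was the 1 gene of the 22 called, where 0.113% of all genes were. Among the Cort libraries, Insr was lower in the HPD group (29.0 ± 4.87 against 47.0 ± 13.5 CPM on the NPD, -0.70 ± 0.18, edgeR adjusted p = 0.0279). It was the 1 gene of the 22 called between diets under Cort, where 5.88% of all genes were. The 10 genes of GH signalling tested in liver, among them Jak2, Stat5a and Stat5b, gave 0 calls in either cort comparison by edgeR, with 0 on the NPD and 1 on the HPD at an unadjusted p under 0.05 (26.7% and 24.3% of all genes). Counts by other tools and values with 1 library left out were made for the 10 axis genes alone. The median log2 fold change of the list was -0.15 on the NPD and -0.19 on the HPD.

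In eWAT 27 of the 30 genes were tested, with a median of 0.02 on the NPD and -0.00 on the HPD. On the NPD cort lowered 4 of the 27 and raised 1, where 3.93% of all genes were called lower and 4.05% higher. Igf2, the fetal relative of Igf1, fell from 18.1 ± 3.32 to 6.97 ± 2.34 CPM (-1.37 ± 0.26, edgeR adjusted p = 9.3e-04), and Igfbp7 (-0.66 ± 0.12), Stc1 (-1.76 ± 0.52) and the receptor inhibitor Grb14 (-0.94 ± 0.27) fell as well (edgeR adjusted p = 7.8e-04, 0.0340 and 0.0302). Stc2, which like Stc1 blocks the protease PAPP-A and so keeps Igfbp4 whole, rose from 11.1 ± 2.49 to 25.9 ± 6.23 CPM (1.22 ± 0.21, edgeR adjusted p = 3.2e-04). Stc1 and Stc2 thus went opposite ways on the NPD.

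On the HPD cort raised 2 of the 27 and lowered 1, where 3.46% of all genes were called higher and 2.63% lower. It raised Stc2 in eWAT from 14.3 ± 3.14 to 35.5 ± 5.79 CPM (1.31 ± 0.21, edgeR adjusted p = 1.5e-04) and Htra1, a protease that cuts binding proteins (0.68 ± 0.15, edgeR adjusted p = 0.0049). Cish, a feedback inhibitor of STAT5 and a relative of Socs2, fell (-1.96 ± 0.51, edgeR adjusted p = 0.0250), from a Veh HPD group that ranged from 4.70 to 42.4 CPM. The HPD values of Stc2, Htra1 and Cish include the library with epididymal transcripts. Of the 27 genes, Igf2r alone differed between tissues in its cort response (0.70 ± 0.18 higher in liver, edgeR adjusted p = 0.0086), where 7.76% of all genes tested were called.

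As a check of exposure, 6 targets of the glucocorticoid receptor were followed. Fkbp5, a direct target of the glucocorticoid receptor, rose under cort on the NPD in liver (2.23 ± 0.48, edgeR adjusted p = 0.0094) and eWAT (1.74 ± 0.39, edgeR adjusted p = 0.0156). On the HPD it was not called (1.15 ± 0.51 in liver and 0.60 ± 0.38 in eWAT, edgeR adjusted p = 0.188 and 0.445). Of the others, Tat, which is also among the hepatocyte markers, fell in liver on the NPD (-1.25 ± 0.38, edgeR adjusted p = 0.0459). On the HPD, Per1 and Zbtb16 fell in liver and Zbtb16 and Sgk1 in eWAT. The HPD results of these targets in eWAT include the library with epididymal transcripts. In liver, edgeR called 1 of 6 targets higher and 1 lower on the NPD, and 0 higher and 2 lower on the HPD. Of all genes in liver, 12.6% and 9.89% were called in either direction. In eWAT 5 targets were tested, with 1 higher and 0 lower on the NPD and 0 higher and 2 lower on the HPD. Of all genes in eWAT, 7.98% and 6.09% were called. By edgeR, the diet by cort interaction was called for 0 of 6 targets in liver and 0 of 5 in eWAT (0.113% and 0.0132% of all genes). A response of Fkbp5 that differs between diets was therefore not called. For HPD against NPD under Cort, 1 target was called higher and 1 lower in liver, and 0 in eWAT (5.88% and 0.487% of all genes).

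Among the genes tested in eWAT, those whose 4 group means followed the pattern of Igf1 most closely were C1qtnf6, Clec3b and Loxl2. The measure was the root mean square difference of the centred group means of log2(CPM + 0.5), which was 0.0351, 0.0460 and 0.0622 for these genes and had a median of 0.759 over the 15137 genes compared in 16 libraries. In liver, Nsun5, Pop4 and Eloa were closest to Igf1 (0.00989 to 0.0112), and Anapc13, Zfp706 and Mmadhc to Igfbp1 (0.00448 to 0.0106). There the group means of both genes differed little, as they did for most genes compared, with medians of 0.216 and 0.203 over 12363 genes in 15 libraries.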

How the data were processed

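RNA of liver and eWAT was sequenced with QuantSeq 3′ libraries. The deposited values are raw read counts per Ensembl gene and library, which the authors did not normalize. Per the labels, the notes of the submitters name GRCm38 (mm10), R 4.0.3 and limma, and the aligner, counter and annotation are not given in the sources used here. Of 47643 IDs, 47224 had a symbol in the GENCODE M21 annotation of GRCm38. The 10 genes and the lists were chosen with earlier results of these data known, and 105 of 106 listed genes matched an ID.

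Counts were tested in R 4.3.3 with edgeR 4.0.16: filterByExpr (minimum count 10, minimum total 15), TMM factors, 1 mean per group, robust quasi-likelihood test and Benjamini-Hochberg adjustment over all genes kept, called under 0.05. CPM are counts divided by TMM-scaled totals. Each tissue was fitted alone (15 liver, 16 eWAT libraries), and both together for the tissue difference. The groups come from the labels, which do not state that libraries came from separate mice, so that p-values measure the spread between these libraries. None of 48 replicate pairs held identical counts (mean chi-square per gene 15.3 to 207). Intervals from depth cover counting error only, and a group with at most 3 counts in each library was taken as at the counting floor. All 10 genes are described, and other pathway genes are named where called in a comparison. Genes most like Igf1 in each tissue, and Igfbp1 in liver, were ranked by group means. Alternatives were edgeR's RLE factors, no filter, DESeq2 1.42.0, limma voom (limma 3.58.1), only the groups compared, a block for the replicate number, the full set of 16 liver libraries and each library left out. The scripts were tested on simulated data.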

Additional observations from a re-analysis of the deposited data

Results flagged for a closer look

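In 8 of 69 sets of 4 libraries, each of 1 gene in 1 group, 1 library stood apart from the other three by Dixon's criterion. Chance meets it in about 1 set in 20, but the sets share libraries. For Igfbp1 in Veh HPD and Cort NPD of eWAT only 1 library had a count, so that the criterion was met whatever its value. In liver these were Igf1 (1486 CPM) and Igfbp4 (1155 CPM) in Cort HPD replicate 1, the former high and the latter low. In eWAT, Cort NPD replicate 2 was high for Igfbp3 (41.2 CPM), Igfbp4 (1784 CPM) and Igfbp1 (2.18 CPM). Veh NPD replicate 2 was low for Igfals (14.4 CPM), and Veh HPD replicate 2 held the only Igfbp1 counts of its group (0.261 CPM). In Cort HPD replicate 4, the library with epididymal transcripts, Igf1r reached 170 CPM.

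For 5 genes the cort response differed between liver and eWAT by a test of the difference itself: Igf1 (1.37 on the log2 scale, liver minus eWAT), Igfbp2 (-3.07), Igfbp3 (-1.97), Ghr (-1.16) and Socs2 (-1.86).

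The liver library left out of all fits, Veh HPD replicate 4, held Igfbp1 at 1448 CPM, while the other liver libraries held 42.1 to 566 CPM.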

How the results depend on the processing

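Under the alternatives that leave out no library, the 21 called values kept direction and call in 123 of 130 refits, lost the call in 7 and reversed in 0, and of 516 refits of values not called 3 gained a call. With all 16 liver libraries the calls under cort fell to 2 genes on the NPD and 2 on the HPD, Igfbp2 and Socs2 in both. Socs2 in eWAT on the NPD lost its call under limma voom (-0.69) and with the replicate number as a block (-0.73), which changed no other call. Between groups of 1 tissue, 1 of 24 same-numbered pairs in eWAT and 3 of 21 in liver correlated above 0.1. Of pairs with different numbers, 3 of 72 and 8 of 63 did. Pairing of liver with eWAT libraries was not examined. DESeq2 added Ghr on the NPD (0.33) and Igfbp5 on the HPD (0.69) in eWAT, and a fit of the compared groups alone added Igfals on the NPD (-0.92). Over all genes, DESeq2 called more than edgeR for HPD against NPD (129 against 9 under Veh and 195 against 74 under Cort in eWAT, 111 against 21 under Veh in liver) and for the interaction (7 against 2 and 125 against 14), and all 16 liver libraries gave 998 calls against 1565 for cort on the NPD. The causes were not tested. Depth limits Igfbp2 and Igfbp1 in eWAT and Igfbp3, Igfbp5 and Igf1r in liver, and 3 libraries limit Veh HPD in liver.

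Directions that turned belonged to values that were not called. Under limma voom these were Igfbp1 in liver (0.0064 for cort on the NPD, 0.081 on the HPD, -0.12 and -0.043 for diet under Veh and Cort, 0.075 for the interaction), Igf1r for cort on the NPD (0.11) and Igf1 for diet under Cort (-0.020) in liver, and Igf1 for the interaction in eWAT (0.018). With the replicate block they were, in liver, Igfbp1 for cort on the NPD (0.043) and diet under Cort (-0.022), Igf1r for cort on the NPD (0.023), Igfals for diet under Veh (-0.055) and Igf1 for diet under Cort (-0.0015), and Igf1 for the interaction in eWAT (0.022). All 16 liver libraries turned Igf1 for cort on the HPD (0.15) and Igfals for diet under Veh (-0.26). RLE factors and DESeq2 turned Ghr for diet under Veh in eWAT (-0.00067 and -0.00065).

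With each library left out in turn, the calls were 3 to 4 (cort, NPD) and 2 to 5 (cort, HPD) in liver, 3 to 5 and 3 to 3 in eWAT, 0 to 1 for diet under Cort in liver and 5 to 6 for the tissue difference. The count of 2 came without Veh HPD replicate 3, where 844 genes in all were called, against 1226 with it. Refits with 3 calls for cort on the NPD in liver called 1078 to 1466 genes in all, against 1565. The 1 call for diet under Cort in liver came without Cort HPD replicate 1, with 622 genes called in all, against 729. Values that turned ranged, for cort in liver, from -0.23 to 0.13 (Igfbp1, NPD), -0.26 to 0.24 (Igf1r, NPD), -0.33 to 0.039 (Igf1, HPD), -0.95 to 0.51 (Igfbp1, HPD), -0.035 to 0.23 (Igfbp4, HPD) and -0.67 to 0.13 (Igfbp5, HPD). For diet in liver they ranged from -0.090 to 0.14 (Igfals) and -0.46 to 0.99 (Igfbp1) under Veh, and from -0.25 to 0.11 (Igf1), -0.25 to 0.29 (Igfbp1), -0.045 to 0.33 (Igfbp2) and -0.18 to 0.071 (Socs2) under Cort. For the liver interaction they ranged from -0.11 to 0.26 (Igf1), -0.91 to 0.55 (Igfbp1) and -0.13 to 0.30 (Ghr). In eWAT they ranged from -0.13 to 0.040 (Igf1r, NPD) and -0.47 to 0.67 (Igf1r, HPD) for cort, from -0.25 to 0.018 (Igf1), -0.039 to 0.099 (Ghr) and -0.090 to 0.28 (Socs2) for diet under Veh, from -0.19 to 0.039 (Igf1), -0.056 to 0.28 (Igfbp3) and -0.11 to 0.023 (Ghr) under Cort, and from -0.12 to 0.17 (Igf1), -0.39 to 0.75 (Igf1r) and -0.16 to 0.017 (Ghr) for the interaction. The tissue difference of Igfbp5 ranged from -0.038 to 0.36.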
